A study of Mus musculus with 8 samples.

Results

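Serpins are a family of protease inhibitors that trap their target enzyme with an exposed loop, and the liver is the source of most serpins found in plasma. The genes were taken by mouse symbols beginning with Serpin, and each was followed on the array probe that had the highest mean signal among its probes. Of 68 such symbols in the gene table, 59 had at least 1 probe, on 74 probes in all. A gene was tested if a probe was well above background, as the scanner software defines it, on both arrays of at least 1 group. By this rule 37 serpins were tested among 14582 genes, 22 did not pass, and 21 were well above background on all 8 arrays. Because a gene can pass through the group in which it is high, counts over the 37 describe these genes and not the whole family.

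The livers came from C57BL/6J mice in which TIS21, now named Btg2, an antiproliferative gene of the BTG and TOB family, was deleted or intact. The groups were adult knockout and adult wild type, both from 10 week old males fasted for 20 h, and fetal knockout and fetal wild type, both from embryonic day 13.5 with males and females pooled. Each group was 1 RNA sample hybridised to 2 one-colour Agilent arrays, so the p-values below measure the spread between technical arrays and compare 4 RNA samples, not animals. The fetal RNA came from several fetuses pooled, and how many adult livers entered each sample was not given in the sources used here. No fed adult group was analysed here, so adult values are values of fasted liver. Stage is also confounded with fasting and with the sex of the animals, and these cannot be told apart.

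Btg2 itself was not well above background on any of the 4 knockout arrays, where the processed signal was between 4.54 and 8.02. It was 149 and 158 in adult wild type and 2070 and 2080 in fetal wild type. The 2 arrays of a group correlated at 0.992 to 0.997 over all genes, and the SD of the difference between duplicates of the 37 serpins was 0.25 to 0.40 on the log2 scale. The share of probes well above background was 38.5% to 42.3% on adult arrays and 48.7% to 61.1% on fetal arrays. Of 15 hepatocyte markers, 14 were higher in adult than in fetal liver in each genotype, and all 11 erythroid markers were lower. In such bulk samples, fewer cells of a type and less RNA per cell cannot be told apart.

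The letter in a serpin's name gives its clade. Clade a holds the secreted antiproteases and the hormone carriers that share their fold. Clade b holds mostly intracellular inhibitors that protect cells from leukocyte proteases. Clades c to g are largely plasma inhibitors of clotting, fibrinolysis and complement, clade h is a collagen chaperone and clade i holds neuroserpin. The tested genes were 18 of clade a, 11 of clade b, 2 of clade f, and 1 each of clades c, d, e, g, h and i. Of the 27 clade b genes with a probe, 16 did not pass, against 5 of 23 in clade a. The others that did not pass came to 1 gene, Serpini2. The levels below are scaled signals, the processed signal divided by the 75th percentile of its array, and they compare samples for 1 probe, not genes with each other.

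**Figure D1:**
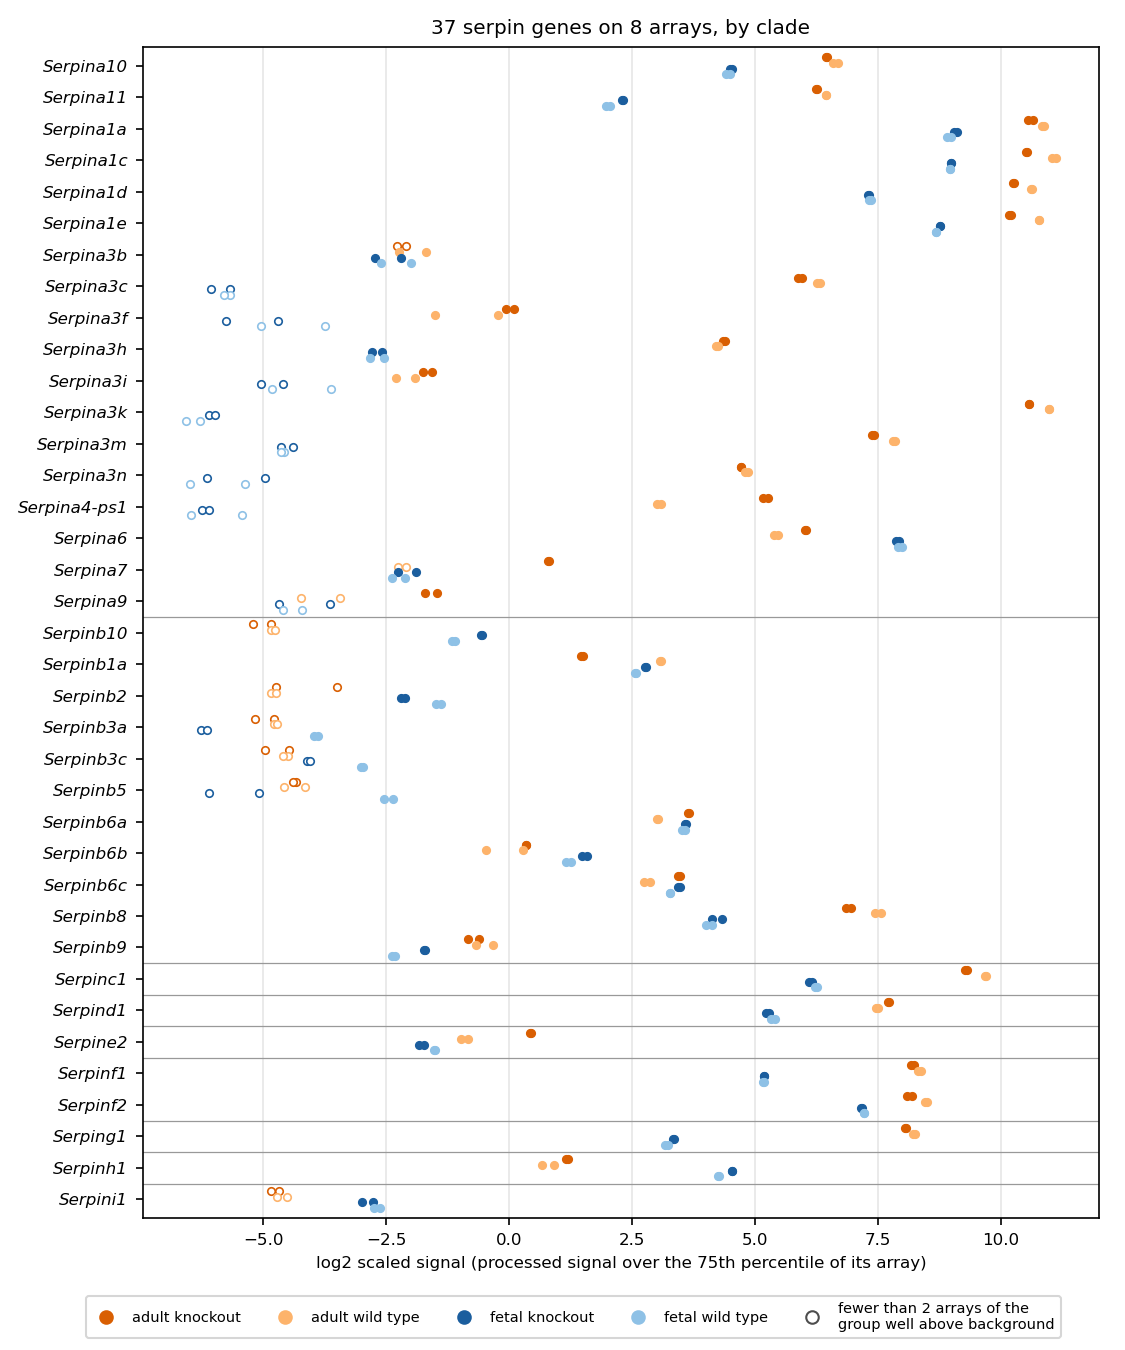
Scaled signal on a log2 axis (x) of the 37 tested serpins (rows, grouped by clade) on each of 8 arrays. Colours mark the 4 groups, and open points mark groups with fewer than 2 arrays well above background. Many clade a genes sit far to the right in both adult groups, whereas several clade b genes are open in the adult groups.

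The Serpina genes of chromosome 12 lie side by side. Of the promoters shown here, those of Serpina1 genes were alike and those of Serpina3 genes were alike, but not the former with the latter. The promoter windows that follow, from RefSeq on GRCm38.p6, run from 250 bases before to 50 bases after the start of the gene. They are shown because these paralogs gave the widest range of stage differences, from 1.53 log2 units for Serpina1a and Serpina1c in the knockout to no detection in fetal liver for Serpina3c and Serpina3n. Capitals mark GTTAAT or its reverse complement ATTAAC, the half-site bound by HNF1, a liver-enriched transcription factor. The windows are chr12:103863570-103863869 for Serpina1a, chr12:103904901-103905200 for Serpina1c and chr12:104153823-104154122 for Serpina3c, all on the minus strand. Serpina3n is at chr12:104406458-104406757 on the plus strand, and Serpina7 is at chrX:139085187-139085486 on the minus strand.
Serpina1a: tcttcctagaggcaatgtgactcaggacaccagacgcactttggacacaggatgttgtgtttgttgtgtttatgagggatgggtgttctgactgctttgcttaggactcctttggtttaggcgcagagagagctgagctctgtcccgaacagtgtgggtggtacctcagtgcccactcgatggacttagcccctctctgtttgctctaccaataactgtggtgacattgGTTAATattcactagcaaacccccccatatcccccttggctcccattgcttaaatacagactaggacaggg
Serpina1c: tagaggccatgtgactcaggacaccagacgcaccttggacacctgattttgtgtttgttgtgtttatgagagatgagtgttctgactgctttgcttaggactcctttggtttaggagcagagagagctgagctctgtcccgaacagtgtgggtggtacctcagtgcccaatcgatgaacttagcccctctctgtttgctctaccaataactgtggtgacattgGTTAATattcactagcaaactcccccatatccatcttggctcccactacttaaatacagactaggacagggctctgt
Serpina3c: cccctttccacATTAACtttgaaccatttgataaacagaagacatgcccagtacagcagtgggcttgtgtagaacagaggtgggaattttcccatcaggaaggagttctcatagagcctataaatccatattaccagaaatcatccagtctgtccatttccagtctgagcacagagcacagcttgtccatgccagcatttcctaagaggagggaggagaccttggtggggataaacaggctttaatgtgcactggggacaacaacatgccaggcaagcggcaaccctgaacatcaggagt
Serpina3n: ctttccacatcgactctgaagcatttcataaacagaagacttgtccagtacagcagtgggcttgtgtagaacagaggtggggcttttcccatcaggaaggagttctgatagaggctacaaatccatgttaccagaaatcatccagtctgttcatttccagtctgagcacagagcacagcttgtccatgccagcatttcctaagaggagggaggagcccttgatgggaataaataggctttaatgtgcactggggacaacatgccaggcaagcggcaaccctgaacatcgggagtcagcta
Serpina7: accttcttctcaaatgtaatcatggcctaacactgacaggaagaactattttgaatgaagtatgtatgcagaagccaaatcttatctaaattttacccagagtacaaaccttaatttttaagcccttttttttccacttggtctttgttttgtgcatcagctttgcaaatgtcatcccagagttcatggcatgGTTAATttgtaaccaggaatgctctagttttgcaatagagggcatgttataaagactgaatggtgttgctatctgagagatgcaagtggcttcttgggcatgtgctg

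The Serpina1a and Serpina1c windows aligned over 294 bases with 94.9% identity, and both hold the marked half-site within the same stretch. The Serpina3c and Serpina3n windows aligned over 294 bases with 93.5% identity, but only the Serpina3c window holds the marked letters. The Serpina1a window aligned with that of Serpina3c over 1 base and with that of Serpina3n over 45 bases at 64.4% identity. Of the 37 tested serpins, 28 had a promoter in the table. Searched on both strands, GTTAAT was present for 7 of these 28 genes (25.0%): Serpina1a, Serpina1c, Serpina1d, Serpina1e, Serpina3c, Serpina7 and Serpinb8. It was present in 7.10% of all 32851 promoter windows. Here and for the patterns below, the background counts windows, whereas the serpin share counts genes, some with more than 1 window. The 4 Serpina1 windows are near copies of each other, so these matches are not independent. TTGCNNAA, a letter pattern of the C/EBP family, was present for 8 of the 28 genes (28.6%) and in 10.8% of all windows. TATAAA was present for 8 genes (28.6%) and in 13.6% of all windows. A match describes letters in a window, not binding.

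Adult against fetal liver gave the largest differences, and most serpins were higher in the adult. A gene was called when the Benjamini-Hochberg adjusted p of limma over all 14582 genes was under 0.05 and the difference was at least 2-fold. In the knockout, 25 of 37 serpins (67.6%) were higher and 7 (18.9%) lower in adult than in fetal liver, where the background over all genes was 25.8% higher and 27.8% lower. In wild type, 21 (56.8%) were higher and 8 (21.6%) lower, where the background was 27.3% higher and 27.9% lower. The median log2 difference of the 37 was 1.94 in the knockout and 1.91 in wild type, beside -0.04 and -0.01 over all genes in the same 2 comparisons. Both adult arrays were above both fetal arrays for 27 serpins in the knockout and 23 in wild type (46.1% and 46.2% of all genes), and below for 8 and 11 (48.2% and 46.5%). The same direction was called in both genotypes for 26 serpins, 20 higher and 6 lower.

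**Figure D2:**
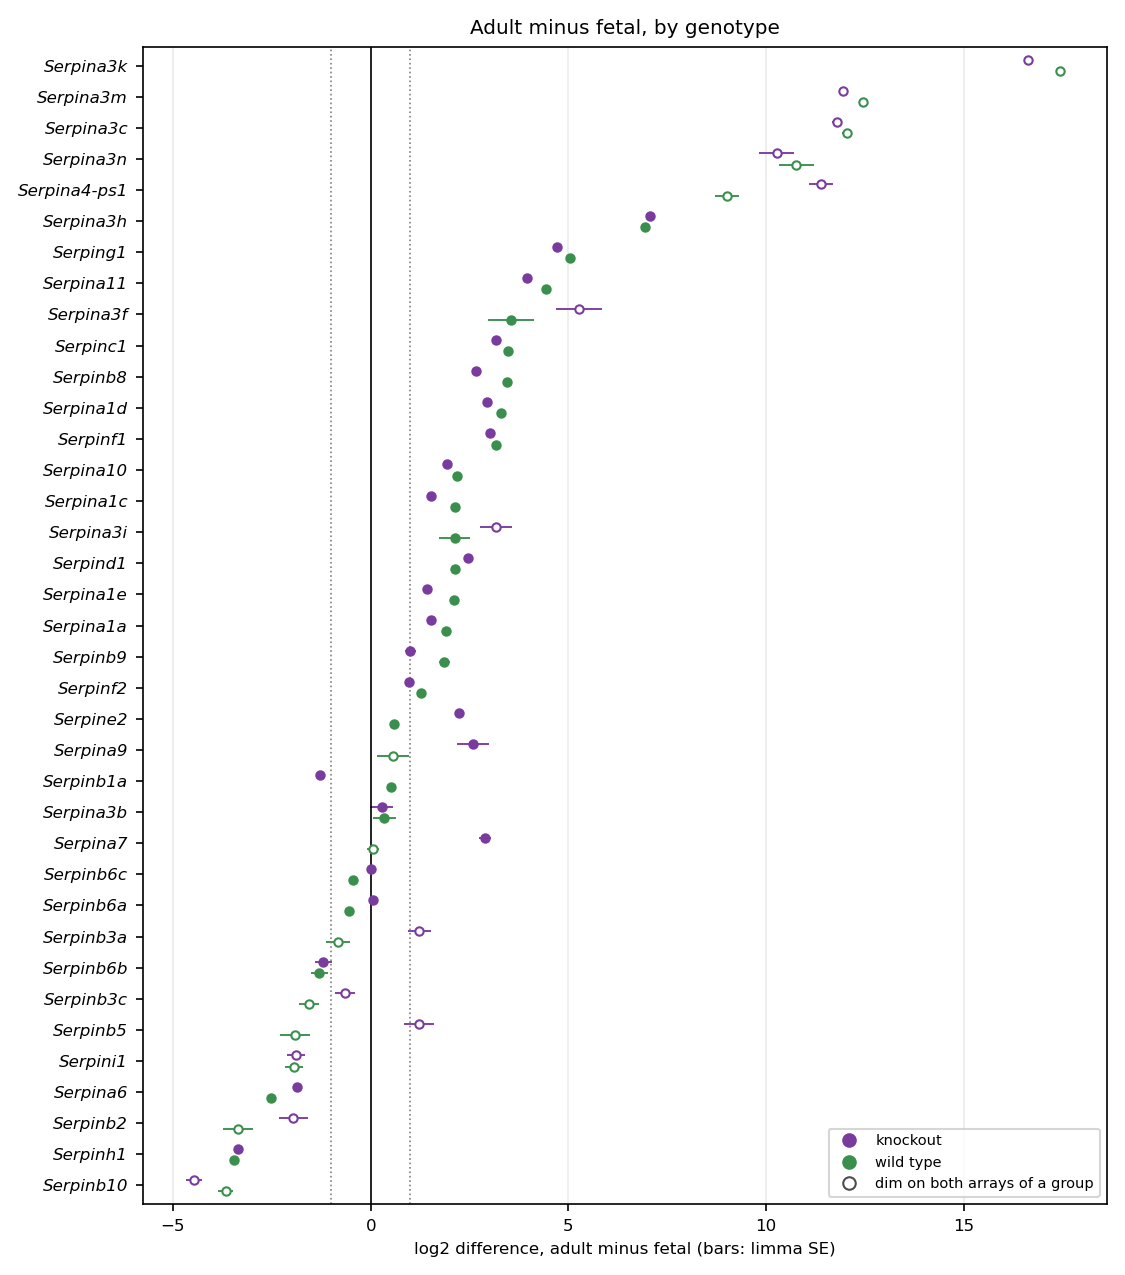
Adult minus fetal log2 difference (x, bars are limma standard errors) of each tested serpin (rows, ordered by the wild-type value) in knockout and wild type. Dotted lines mark 2-fold. Open points had a group that was dim on both arrays, so their position is not a measured size. Serpina3 paralogs lead the upper end, and Serpinh1, Serpina6 and clade b genes fill the lower end.

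Clade a carried most of the rise, with 16 of 18 genes higher in adult knockout than fetal knockout and 14 of 18 higher in adult wild type than fetal wild type. Over all genes 25.8% and 27.3% were higher. Both arrays detected 17 of the 18 genes in adult knockout and 16 in adult wild type, but 10 in each fetal group. Genes detected in adult liver alone passed the filter through the groups in which they were high, so these counts are not independent of the filter. The median log2 difference of clade a was 3.06 in the knockout and 2.74 in wild type. The widest contrasts were in the Serpina3 paralogs, relatives of human alpha-1-antichymotrypsin that multiplied in rodents. Where neither fetal array was well above background, the difference is given as a bound, the adult mean against the lowest signal that counted as well above background or the fetal probe's own signal, whichever was higher.

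Serpina3k, a kallikrein-binding plasma serpin, had scaled signals of 1530 and 1520 in adult knockout, against 0.0145 and 0.0157 in fetal knockout. In wild type Serpina3k had 2030 and 2040 in adult liver, against 0.0105 and 0.0128 in fetal liver. It was thus at least 24000-fold higher in adult knockout and at least 44300-fold higher in adult wild type and was detected on no fetal array. Serpina3m had 171 and 168 in adult knockout, against 0.0400 and 0.0474 in fetal knockout, at least 2680-fold higher. In wild type Serpina3m had 224 and 231 in adult liver, against 0.0419 and 0.0400 in fetal liver, at least 4930-fold higher. No fetal array detected it either.

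Serpina3c had 61.9 and 59.1 in adult knockout, against 0.0195 and 0.0149 in fetal knockout, at least 955-fold higher. In wild type Serpina3c had 80.0 and 76.8 in adult liver, against 0.0194 and 0.0178 in fetal liver, at least 1700-fold higher. Serpina3n, an acute-phase inhibitor of granzyme B and cathepsin G, shares most of its promoter letters with Serpina3c. It had 26.3 and 26.3 in adult knockout, against 0.0321 and 0.0140 in fetal knockout, at least 415-fold higher. In wild type Serpina3n had 28.9 and 27.9 in adult liver, against 0.0242 and 0.0111 in fetal liver, at least 617-fold higher. The adult and fetal arrays of both genes were apart in each genotype.

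Serpina3h, listed as a transcribed pseudogene, was well above background on all 8 arrays and gave a measured difference. It had 20.3 and 21.0 in adult knockout, against 0.167 and 0.144 in fetal knockout, a log2 difference of 7.06 ± 0.10 (limma SE). In wild type Serpina3h had 18.6 and 19 in adult liver, against 0.17 and 0.140 in fetal liver, a log2 difference of 6.93 ± 0.10. The interaction of genotype and stage was 0.13 ± 0.15 and was not called.

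Not every Serpina3 paralog followed. Serpina3b stayed between 0.151 and 0.310 on the 8 arrays, its adult and fetal values overlapped, and it was not called in either genotype. Serpina3f had 0.958 and 1.07 in adult knockout, against 0.0184 and 0.0382 in fetal knockout, and it was at least 16-fold higher there. In wild type Serpina3f had 0.859 and 0.353 in adult liver, against 0.0740 and 0.0304 in fetal liver, a log2 difference of 3.54 ± 0.58 with 1 of 2 fetal arrays detected. On adult arrays its duplicates were further apart than those of the brighter paralogs. Serpina3i had 0.336 and 0.298 in adult knockout, against 0.0411 and 0.0303 in fetal knockout, at least 5-fold higher. In wild type Serpina3i had 0.204 and 0.266 in adult liver, against 0.0812 and 0.0353 in fetal liver, a log2 difference of 2.12 ± 0.40. These paralogs are close in sequence, and whether their probes share target RNA was not tested.

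**Figure D3:**
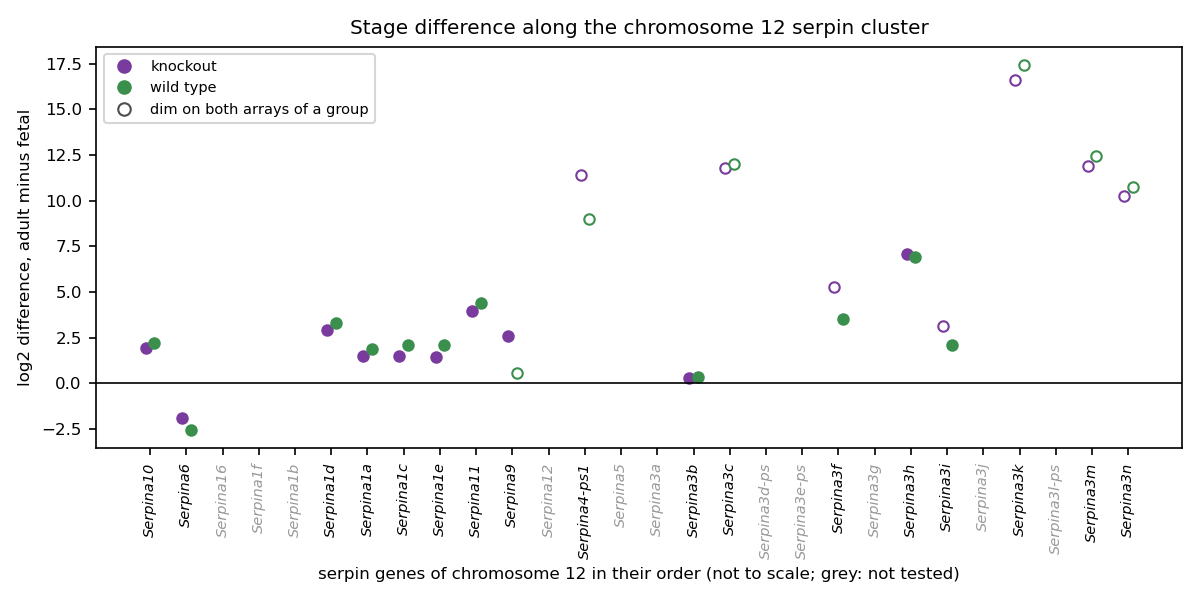
Adult minus fetal log2 difference (y) of the Serpina genes of chromosome 12 in their order along the chromosome (x, not to scale), in knockout and wild type. Grey names were not tested, and open points had a group that was dim on both arrays. Serpina6 is the only tested gene of the cluster below 0, beside Serpina10, which was higher in adult liver.

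The Serpina1 genes encode alpha-1-antitrypsin, the plasma inhibitor of neutrophil elastase, in several mouse copies. They were already bright in fetal liver and rose less than the Serpina3 genes that were detected in adult liver alone. Serpina1d had 1220 and 1230 in adult knockout, against 160 and 158 in fetal knockout, a log2 difference of 2.95 ± 0.04. In wild type Serpina1d had 1570 and 1600 in adult liver, against 160 and 165 in fetal liver, a log2 difference of 3.29 ± 0.04. Serpina1c had 1490 and 1460 in adult knockout, against 511 and 508 in fetal knockout, a log2 difference of 1.53 ± 0.04. In wild type Serpina1c had 2230 and 2130 in adult liver, against 504 and 503 in fetal liver, a log2 difference of 2.12 ± 0.04. Adult and fetal arrays did not overlap for either gene.

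Serpina1a and Serpina1e were higher in adult liver by 1.43 to 2.10 log2 units, but their second probes gave larger differences. For Serpina1a in the knockout the second probe gave 3.23 against 1.53 on the probe used, and in wild type 3.55 against 1.91. For Serpina1e in the knockout the second probe gave 3.1 against 1.43, and in wild type 3.51 against 2.10. The second Serpina1d probe gave 4.14 in the knockout and 3.97 in wild type, also above the probe used. The direction was shared between probes, whereas the size was not. The Serpina1a call in wild type was lost at 0.90 both under quantile normalisation and in the deposited value table. In the knockout the calls of Serpina1a, Serpina1c and Serpina1e were lost under median scaling, at 0.99, 0.99 and 0.89. The Serpina1e call in the knockout was also lost under quantile normalisation, at 0.97, and in the deposited value table, at 0.98.

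Serpina11 and Serpina10 of chromosome 12 were also measured at both stages. Serpina11 had 75.6 and 76.8 in adult knockout, against 5.01 and 4.88 in fetal knockout, a log2 difference of 3.94 ± 0.03. In wild type Serpina11 had 87.1 and 87.6 in adult liver, against 3.92 and 4.16 in fetal liver, a log2 difference of 4.43 ± 0.03. Serpina10, the protein Z-dependent inhibitor of clotting factor X, differed by 1.94 ± 0.04 in the knockout and by 2.19 ± 0.04 in wild type. Its scaled signals were 87.2 and 88.6 in adult knockout against 23.2 and 22.5 in fetal knockout, and 104 and 97.0 in adult wild type against 22.7 and 21.4 in fetal wild type. Both genes were higher on every adult array than on any fetal array.

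Serpina6 ran the other way. It encodes corticosteroid-binding globulin, the plasma carrier of glucocorticoids, and inhibits no known protease. It had 66.0 and 65.3 in adult knockout, against 235 and 244 in fetal knockout, and fell by 1.87 ± 0.04 on the log2 scale. In wild type Serpina6 had 44.3 and 41.7 in adult liver, against 241 and 254 in fetal liver, and fell by 2.53 ± 0.04. Its neighbour Serpina10 was higher in the adult, so adjacent genes of the cluster moved in opposite directions.

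The plasma inhibitors of clades c, d, f and g were higher in adult liver, with Serpinf2 in the knockout just under 2-fold. Serpinc1, antithrombin, which blocks thrombin and factor X, had 620 and 642 in adult knockout, against 68.6 and 72.0 in fetal knockout, a log2 difference of 3.17 ± 0.04. In wild type Serpinc1 had 834 and 827 in adult liver, against 74.3 and 76.8 in fetal liver, a log2 difference of 3.46 ± 0.04. Serping1, the inhibitor of complement C1 and of plasma kallikrein, had the largest measured difference outside clade a. It had 271 and 267 in adult knockout, against 10.1 and 10.3 in fetal knockout, a log2 difference of 4.72 ± 0.03. In wild type Serping1 had 306 and 298 in adult liver, against 8.97 and 9.39 in fetal liver, a log2 difference of 5.04 ± 0.03. For both genes the adult and fetal arrays were far apart.

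Serpind1, heparin cofactor II, had 208 and 211 in adult knockout, against 39.1 and 37.5 in fetal knockout, a log2 difference of 2.45 ± 0.04. In wild type Serpind1 had 181 and 178 in adult liver, against 40.1 and 42.6 in fetal liver, a log2 difference of 2.12 ± 0.04. Serpinf1 encodes pigment epithelium-derived factor, which binds the lipase encoded by Pnpla2. It had 289 and 302 in adult knockout against 36.5 and 36.3 in fetal knockout, and 319 and 335 in adult wild type against 36.0 and 36.6 in fetal wild type. The log2 differences of Serpinf1 were 3.02 ± 0.04 in the knockout and 3.17 ± 0.04 in wild type. Serpinf2, the plasma inhibitor of plasmin, changed least of this group. Its log2 difference was 0.97 ± 0.04 in the knockout, where it was not called, and 1.26 ± 0.04 in wild type. That wild-type call was lost under each other scaling, with values of 0.54 to 0.82, and at 0.90 with another background correction.

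Of the 11 clade b genes, 4 (36.4%) were called higher and 4 (36.4%) lower in adult knockout than fetal knockout. In adult wild type against fetal wild type, 2 (18.2%) were higher and 5 (45.5%) lower. The background over all genes was 25.8% higher and 27.8% lower in the knockout, and 27.3% and 27.9% in wild type. In the knockout 2 of the 4 higher calls, Serpinb3a and Serpinb5, had neither group well above background, so no size was measured. Both calls were lost under each other scaling and background correction, at 0.02 to 0.97. Serpinb8, an intracellular inhibitor of furin, had 116 and 124 in adult knockout, against 17.6 and 20.0 in fetal knockout, a log2 difference of 2.67 ± 0.07. In wild type Serpinb8 had 175 and 190 in adult liver, against 16.0 and 17.5 in fetal liver, a log2 difference of 3.45 ± 0.07. Serpinb8 was the clade b gene with the largest rise in both genotypes. Serpinb9, the granzyme B inhibitor, differed by 1.00 ± 0.14 in the knockout and by 1.86 ± 0.14 in wild type. Its knockout call lies at the 2-fold line and was lost under each other scaling and background correction, at 0.46 to 0.97, without adult knockout replicate 2, at 0.89, and without fetal knockout replicate 2, at 0.99.

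Serpinb10 and Serpinb2 were detected in fetal liver and on no adult array. Serpinb10, which is found in blood-forming myeloid cells, had 0.0268 and 0.0348 in adult knockout, against 0.669 and 0.684 in fetal knockout, at least 4.46-fold lower. In wild type Serpinb10 had 0.0348 and 0.0369 in adult liver, against 0.463 and 0.449 in fetal liver, at least 2.56-fold lower. Serpinb2, an inhibitor of urokinase made by macrophages and epithelia, had 0.0373 and 0.0883 in adult knockout, against 0.230 and 0.219 in fetal knockout, at least 1.48-fold lower. In wild type Serpinb2 had 0.0348 and 0.0371 in adult liver, against 0.382 and 0.356 in fetal liver, at least 2.07-fold lower. With the normexp background correction the Serpinb2 calls were lost, at -0.23 in the knockout and -0.50 in wild type, and the Serpinb10 call was lost in wild type, at -0.85. The neutrophil and megakaryocyte marker lists moved the same way, with 9 of 9 and 7 of 7 genes lower in the adult in each genotype, and their part in these results was not tested. Summed scaled signals of the neutrophil markers were 5.82 and 5.95 in adult knockout against 481 and 474 in fetal knockout, and 5.09 and 5.09 in adult wild type against 370 and 376 in fetal wild type. On the adult arrays 4 of the 9 neutrophil markers were still detected in the knockout and 3 in wild type.

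Serpinb6b had 1.26 and 1.27 in adult knockout, against 3.02 and 2.78 in fetal knockout, and fell by 1.20 ± 0.21 on the log2 scale. In wild type Serpinb6b had 1.22 and 0.722 in adult liver, against 2.38 and 2.24 in fetal liver, and fell by 1.30 ± 0.21. The wild-type call rested on adult wild type replicate 2, the lower of the pair, without which the difference was -0.92. With the normexp background correction the calls were lost in both genotypes, at -0.99 in the knockout and -0.88 in wild type. Serpinb6a and Serpinb6c, which like Serpinb6b are mouse relatives of the human cathepsin G inhibitor, were not called by stage in either genotype. Their log2 differences were 0.05 and 0.00 in the knockout and -0.54 and -0.46 in wild type.

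Serpinh1, known as HSP47, binds procollagen in the endoplasmic reticulum and is the only serpin that serves as a collagen chaperone. It had 2.28 and 2.23 in adult knockout, against 23.1 and 23.3 in fetal knockout, and fell by 3.36 ± 0.07 on the log2 scale. In wild type Serpinh1 had 1.88 and 1.60 in adult liver, against 19.3 and 19 in fetal liver, and fell by 3.47 ± 0.07. Among 18 collagens and collagen-folding enzymes, 9 (50%) were lower and 1 higher in adult knockout than fetal knockout. In adult wild type against fetal wild type, 11 (61.1%) were lower and 1 higher. Over all genes 27.8% were lower in the knockout and 27.9% in wild type, and 25.8% and 27.3% were higher. Col1a1, a chain of type I collagen, fell by 5.72 ± 0.11 in the knockout and by 6.62 ± 0.11 in wild type. Of 11 stellate cell and fibroblast markers, 8 were lower and 2 higher in adult liver in each genotype, and their part was not tested. Their summed scaled signals were 104 and 98.8 in adult knockout against 263 and 256 in fetal knockout, and 125 and 123 in adult wild type against 225 and 228 in fetal wild type. Dcn, one of the higher markers, made up most of the adult sums. It had 89.7 and 83.8 in adult knockout and 116 and 114 in adult wild type. Of these 11 markers, 9 were detected on both arrays in adult knockout, 10 in adult wild type and 11 in each fetal group.

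Serpini1, neuroserpin, had 0.0390 and 0.0349 in adult knockout against 0.147 and 0.126 in fetal knockout. In wild type Serpini1 had 0.0437 and 0.0377 in adult liver against 0.149 and 0.162 in fetal liver. It was called lower in both genotypes, but with the adult arrays not well above background the size has no bound above 1. With the normexp background correction its difference turned to 0.01 in the knockout and 0.22 in wild type. That correction adds an offset of 50 to each signal before scaling. The 75th percentile of the processed signal was 132.2 to 171.0 on adult arrays and 277.3 to 332.9 on fetal arrays. The offset thus lifts dim probes more on adult arrays, so the turn cannot decide the direction, which is not settled.

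The clotting and complement proteases were mostly higher in adult liver too. Of 15 coagulation and fibrinolysis proteases tested, 14 were higher and 1 lower in each genotype, led by F9, which rose by 6.51 ± 0.05 in the knockout and 6.74 ± 0.05 in wild type. Klkb1, plasma prekallikrein, a target of Serping1, rose by 4.99 ± 0.05 in the knockout and 4.60 ± 0.05 in wild type. All 9 complement proteases were higher in adult liver in each genotype, C1ra by 5.21 ± 0.05 in the knockout and 4.51 ± 0.05 in wild type. The pattern of the leukocyte proteases was the reverse, with 6 of 10 lower and 1 higher in adult knockout and 5 of 10 lower in adult wild type. Prtn3, a neutrophil granule protease, fell by 4.60 ± 0.30 in the knockout and fell by 4.25 ± 0.30 in wild type. Of 8 transmembrane and kallikrein-like serine proteases, 3 (37.5%) were higher and 1 (12.5%) lower in adult knockout. In adult wild type 2 (25%) were higher and 3 (37.5%) lower. For all these lists the background over all genes was 25.8% higher and 27.8% lower in the knockout, and 27.3% and 27.9% in wild type.

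Inhibitors from other families were higher more often than lower, 14 against 3 of 24 in the knockout and 16 against 5 in wild type. Over all genes 25.8% were higher and 27.8% lower in the knockout, and 27.3% and 27.9% in wild type. Hrg, a histidine-rich plasma protein, rose by 11.08 ± 0.17 in the knockout and 11.24 ± 0.17 in wild type. Itih4, an inter-alpha-trypsin inhibitor heavy chain, rose by 4.47 ± 0.03 in the knockout and 4.74 ± 0.03 in wild type. Of 11 ligands and partners of serpins, 9 were higher and 1 lower in each genotype. Vtn, vitronectin, an adhesive plasma protein, rose by 3.71 ± 0.03 in the knockout and 3.62 ± 0.03 in wild type.

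The question put by the study's design was how loss of Btg2 alters fasted adult liver. In adult knockout against adult wild type, 4 of 37 serpins (10.8%) were higher and 1 (2.70%) lower, where the background was 4.96% higher and 2.53% lower. The higher genes were Serpina7, Serpina9, Serpina4-ps1 and Serpine2, and the lower one was Serpinb1a. The median log2 difference over the 37 was -0.17, beside -0.10 over all genes. Both knockout arrays were above both wild-type arrays for 14 serpins and below them for 17, where the background was 30.8% above and 46.6% below. The bulk of the family thus differed less than 2-fold, and counts this small stand close to the background.

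**Figure D4:**
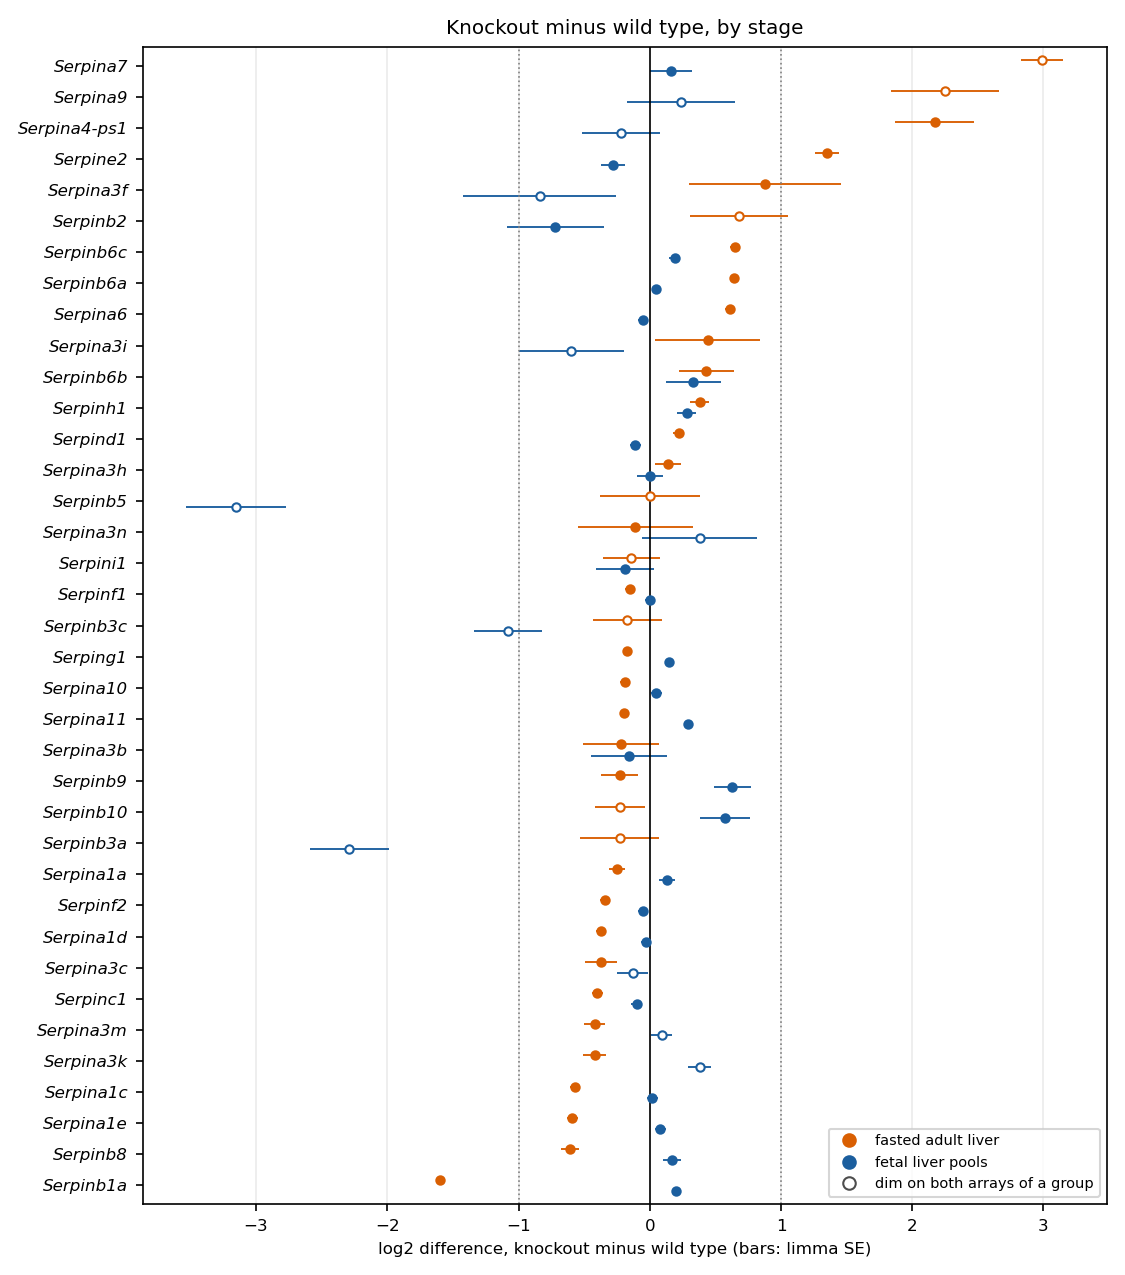
Knockout minus wild type log2 difference (x, bars are limma standard errors) of each tested serpin (rows, ordered by the adult value) in fasted adult liver and in fetal liver pools. Dotted lines mark 2-fold, and open points had a group that was dim on both arrays. The 5 adult calls lie at the ends of the orange series, whereas the 3 fetal calls, Serpinb5, Serpinb3a and Serpinb3c, are open points on the left.

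Serpina7 encodes thyroxine-binding globulin, a clade a carrier of thyroid hormone. It had 1.74 and 1.75 in adult knockout, against 0.208 and 0.233 in adult wild type, where it was not well above background. It was at least 7.93-fold higher in adult knockout, with an adjusted p of 6.5e-06 in limma. In fetal liver it had 0.208 and 0.268 in knockout, against 0.231 and 0.192 in wild type, and the groups overlapped. The adult knockout arrays were the only pair of the 4 groups that stood apart.

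Serpina4-ps1, a transcribed pseudogene of the chromosome 12 cluster, had 36.0 and 38.8 in adult knockout, against 8.04 and 8.52 in adult wild type. The log2 difference was 2.17 ± 0.30, with an adjusted p of 0.00057 in limma. It was on no fetal array, with 0.0132 and 0.0146 in fetal knockout against 0.0232 and 0.0113 in fetal wild type. By stage it was at least 589-fold higher in adult than in fetal knockout and at least 180-fold higher in adult than in fetal wild type. Serpina9, which in human marks germinal centre B cells, had 0.361 and 0.305 in adult knockout, against 0.0531 and 0.0919 in adult wild type. It was at least 1.86-fold higher in adult knockout, with an adjusted p of 0.0027 in limma, and this call was lost at 0.51 with the normexp background correction. Serpina9 also passed the filter through adult knockout alone, the group in which it was high, so its call is not independent of the filter.

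Serpine2 of clade e, protease nexin 1, inhibits thrombin and urokinase. It had 1.34 and 1.36 in adult knockout, against 0.506 and 0.559 in adult wild type. The log2 difference was 1.35 ± 0.09, with an adjusted p of 2.1e-05 in limma, and it dropped under 2-fold, to 0.79, with the normexp background correction. The knockout arrays were above the wild-type arrays.

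Serpinb1a inhibits elastase, cathepsin G and proteinase 3 of neutrophils. It had 2.82 and 2.76 in adult knockout, against 8.46 and 8.43 in adult wild type, and fell by 1.60 ± 0.03 on the log2 scale, with an adjusted p of 5.9e-08 in limma. In fetal liver it had 6.86 and 6.77 in knockout, against 5.88 and 5.97 in wild type, a log2 difference of 0.20 ± 0.03. Adult knockout was the lowest of the 4 groups, and fetal and adult wild type lay above it.

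Macrophage markers differed in the same comparison. All 11 tested markers were called higher in adult knockout than in adult wild type, where the background over all genes was 4.96% higher. Their summed scaled signals were 363 and 371 in adult knockout against 65.7 and 62.5 in adult wild type. Of these 11, all were detected on both arrays in adult knockout and 10 in adult wild type. Other marker lists held calls too. Among them, 3 of 11 stellate cell and fibroblast markers and 2 of 5 mesothelial markers were higher. Of 6 intestinal epithelium markers, 3 were higher and 2 lower. The part of the macrophage and other lists in the 5 serpin calls was not tested. Hepatocyte markers gave no call among 15 in this comparison, each differing by less than 2-fold, at log2 values of -0.68 to 0.49. Of these markers 11 had an unadjusted p under 0.05 in limma, as did 8725 of all 14582 genes. The hepatocyte marker sums were 8630 and 8620 in adult knockout, against 10600 and 10600 in adult wild type.

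Several bright serpins differed by less than 2-fold but beyond the spread of the arrays. Of the 4 Serpina1 genes all were lower in adult knockout, by 0.25 to 0.59 on the log2 scale, with adjusted p between 1.5e-05 and 0.008 in limma. Of all 14582 genes, 8725 had an unadjusted p under 0.05 in limma in this comparison. The median of all genes was -0.10 and changed sign under median scaling, so the size of such differences depends on the scaling. Whether the probes of the Serpina1 genes share target RNA was not tested. Serpinc1 was lower by 0.40 and Serpinb8 by 0.61, each difference a log2 value under 2-fold. Serpina6 went the other way at 0.61 ± 0.04, and its second probe gave 1.10, so the call depends on the probe. Serpinb6a and Serpinb6c were higher by 0.64 and 0.65. For Serpina10, Serpinf1 and Serping1 the probes disagreed in sign, with -0.19, -0.15 and -0.17 on the probes used and 0.51, 0.74 and 0.25 on the second probes. Those differences have no settled direction.

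Each related list had at most 3 genes called in adult knockout against adult wild type, where the background was 4.96% higher and 2.53% lower. Of 24 inhibitors from other families, 3 (12.5%) were higher. Tfpi2, a Kunitz-type inhibitor, rose by 1.01 ± 0.10, whereas Timp1 and Reck were called with no measured size, since at most 1 array of either group was well above background. F8, clotting factor VIII, rose by 1.18 ± 0.13 and was the one gene of 15 coagulation proteases called (6.67%). Of the 18 collagens and folding enzymes 2 (11.1%) were higher: Col3a1 rose by 1.66 ± 0.02 and Col1a1 by 1.12 ± 0.11, while Serpinh1 differed by 0.38 ± 0.07 and was not called. None of the 11 ligands and partners was called by limma, and 6 had an unadjusted p under 0.05, as did 8725 of all 14582 genes. Gzma, a granzyme, rose by 1.34 ± 0.21 as the one call among 10 leukocyte proteases, and Klk1, a kallikrein, rose by 1.28 ± 0.18 as the one call among 8 transmembrane and kallikrein-like proteases. None of the 9 complement proteases was called by limma, and 7 had an unadjusted p under 0.05 beside that same background.

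In fetal knockout against fetal wild type no serpin was higher and 3 of 37 (8.11%) were lower, where the background was 0.521% higher and 1.44% lower. Of the 37, 14 had an unadjusted p under 0.05 in limma, as did 5163 of all 14582 genes. The median log2 difference was 0.02, beside 0.02 over all genes. Both knockout arrays were above both wild-type arrays for 14 serpins and below them for 10, where the background was 39.5% above and 31.8% below. The 3 lower genes, Serpinb5, Serpinb3a and Serpinb3c, all lie in the clade b cluster of chromosome 1 and were well above background in fetal wild type alone. They passed the filter only through that group, in which they were high, so their calls are not independent of the filter. Serpinb5 encodes maspin, a protein of squamous and glandular epithelia. Serpinb3a and Serpinb3c are relatives of the human squamous cell carcinoma antigens, which inhibit cysteine and serine proteases.

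Serpinb5 had 0.0145 and 0.0294 in fetal knockout, against 0.194 and 0.172 in fetal wild type. It was at least 2.88-fold lower in fetal knockout, with an adjusted p of 0.0021 in limma. Serpinb3a had 0.0130 and 0.0140 in fetal knockout, against 0.0638 and 0.0677 in fetal wild type. It was at least 1.04-fold lower, with an adjusted p of 0.003 in limma, a bound close to equal levels. Serpinb3c had 0.0581 and 0.0605 in fetal knockout, against 0.123 and 0.128 in fetal wild type, at least 1.98-fold lower with an adjusted p of 0.025 in limma. For all 3 genes the knockout arrays lay below the wild-type arrays.

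These signals were close to background, and all 3 calls were lost with the normexp background correction, at -0.54 for Serpinb5, -0.40 for Serpinb3a and -0.17 for Serpinb3c. The Serpinb3c call was also lost when any 1 of the 4 fetal arrays was left out, with values of -1.05 to -1.11, and under quantile normalisation, median scaling and the deposited value table, at -0.91, -1.06 and -0.91. Fetal wild type replicate 1 had 61.1% of probes well above background and replicate 2 had 49.8%. Without fetal wild type replicate 1, 2 serpins were still called lower.

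**Figure D5:**
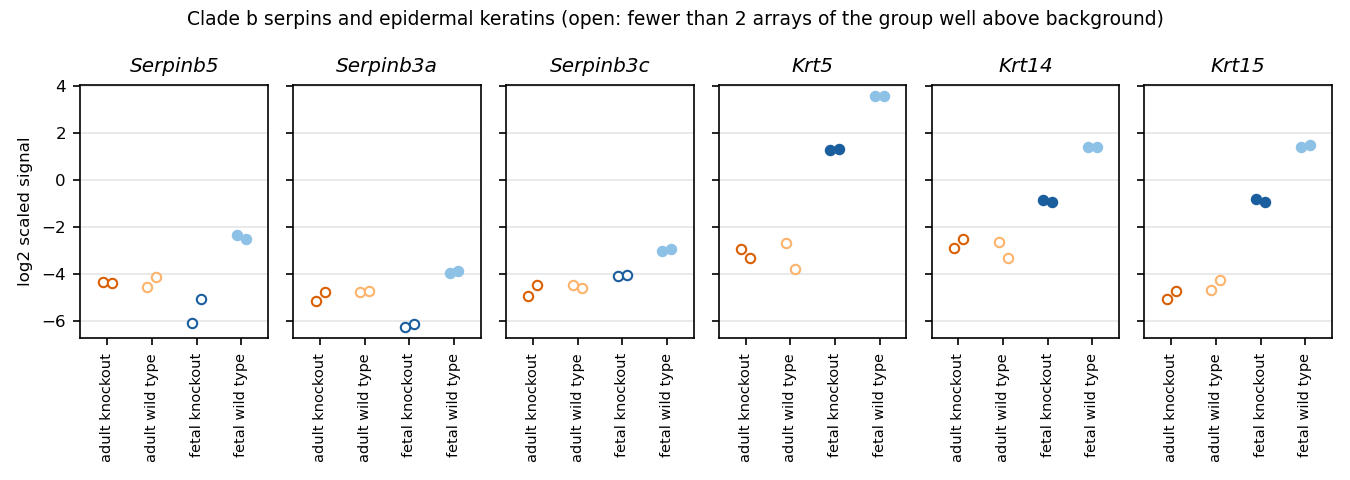
Log2 scaled signal (y) of Serpinb5, Serpinb3a and Serpinb3c and of the epidermal keratins Krt5, Krt14 and Krt15 on the 2 arrays of each group (x). Open points mark groups with fewer than 2 arrays well above background. In fetal knockout every one of the 6 genes lies below fetal wild type. The keratins were picked from 12 epidermal markers, of which 11 lay below and 1, Trp63, above. The serpins shown passed the filter through fetal wild type alone.

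Epidermal markers differed in the same pools. Of 12 markers, 7 were called lower in fetal knockout than in fetal wild type and none was called higher. The background over all genes was 1.44% lower and 0.521% higher. Of the 12, 11 had an unadjusted p under 0.05 in limma, as did 5163 of all 14582 genes. The summed scaled signals were 15.0 and 14.8 in fetal knockout, against 34.6 and 34.7 in fetal wild type. Of the 12, both arrays detected 10 in fetal knockout and 12 in fetal wild type. Krt5, a basal keratin, had 2.42 and 2.47 in fetal knockout, against 11.9 and 11.9 in fetal wild type. Krt14 had 0.560 and 0.522 in fetal knockout, against 2.67 and 2.67 in fetal wild type. Trp63, of the same list, went the other way, with 3.36 and 3.14 in fetal knockout against 2.83 and 2.89 in fetal wild type. Heart muscle markers differed the other way, with 5 of 7 called higher in fetal knockout, beside 0.521% of all genes, and a median log2 difference of 1.51. Their summed scaled signals were 282 and 280 in fetal knockout, against 110 and 111 in fetal wild type, and both arrays detected all 7 in each fetal group. The part of both marker lists in the serpin calls was not tested. Of the transmembrane and kallikrein-like proteases, Tmprss4 fell by 1.53 ± 0.18 and Klk1 was at least 2.18-fold lower in fetal knockout.

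Outside clade b no serpin was called in the fetal comparison. These 26 serpins outside clade b had a median log2 difference of 0.00 in fetal knockout against fetal wild type, and a range of -0.84 to 0.38. Of the 26, 7 had an unadjusted p under 0.05 in limma, as did 5163 of all 14582 genes. Serpina1a, Serpina1c, Serpina1d and Serpina1e differed by 0.13, 0.02, -0.03 and 0.08. Serpinc1 differed by -0.10 and Serpinf1 by 0.00, although the second Serpinf1 probe gave -0.58 and the second Serpina1d probe -0.30. Serpinb9 and Serpinb10 were higher by 0.63 ± 0.14 and 0.57 ± 0.19, below the 2-fold line.

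The interaction of genotype and stage asks whether the knockout difference in adult liver departs from that in fetal liver, which is the same contrast as asking whether the stage difference departs between genotypes. It was positive for 6 serpins (16.2%) and negative for 1 (2.70%), where the background was 6.06% positive and 3.70% negative. Serpinb1a was 1.29 ± 0.03 log2 units lower in adult than in fetal knockout, whereas the adult minus fetal difference in wild type was 0.51 ± 0.03, not called. The interaction of Serpinb1a was -1.80 ± 0.04, with an adjusted p of 5.1e-07 in limma.

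The positive interactions held 2 kinds of gene. For Serpina7, Serpina9, Serpina4-ps1 and Serpine2 the adult knockout was the high group, and the interactions were 2.82 ± 0.23, 2.01 ± 0.58, 2.40 ± 0.42 and 1.62 ± 0.13. For Serpinb5 and Serpinb3a the fetal wild type was the high group, and the interactions were 3.15 ± 0.53 and 2.05 ± 0.43. No array of their other groups was well above background. Serpina7 and Serpina9 had no adult wild type array well above background, and Serpina4-ps1 had no fetal array. Apart from that of Serpine2, these interactions are thus not measured sizes. With the normexp background correction the interaction calls of Serpinb5, Serpinb3a, Serpina9 and Serpine2 were lost, at 0.41, 0.10, 0.19 and 0.84. In wild type Serpinb5 had 0.0418 and 0.0562 in adult liver against 0.194 and 0.172 in fetal liver, at least 1.02-fold lower. The stage differences of Serpinb3c were -0.65 in the knockout and -1.56 in wild type, with no size above 1 by the bound.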

How the data were processed

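Labelled RNA (200 ng per sample) from 4 liver samples was hybridised in duplicate to one-colour Agilent arrays, 8 arrays on 1 slide in 1 scan. The deposited scanner intensity values were made by the authors with Feature Extraction 10.7.3.1, per the file headers, and no spot was marked saturated. The series value table deposited by the authors holds normalized intensity values with the same column median on every array (18.11, on a linear scale) and entered as an alternative. How it was scaled was not stated there.

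Log2 of the processed signal, less the 75th percentile of each array, was averaged over the spots of a probe. Probes were named by accession through RefSeq (GRCm38.p6): 26762 had 1 symbol and 28919 had none. limma 3.58.1 in R 4.3.3 fitted all 4 groups with an intensity trend, and p-values were adjusted over 14582 genes. On simulated data 86% and 90% of changes of 1.5 log2 units up and down were recovered in the adult genotype comparison, and 96% of those of 3 units. Intervals for counting do not apply to arrays, whose number limits the precision. The mean foreground column was not used here, so normexp (offset 50) took the median foreground and background instead. Promoters were aligned with Biopython 1.88. Members, lists and named genes (every serpin called by genotype or interaction, the 12 largest measured and 6 largest bounded stage differences each way, and at most 4 called genes of a related list) were chosen with earlier results of these data known. A gene of the family and a gene of the related lists are not reported here and enter no count of members. Alternatives covered background, scaling, filter, probe choice, variance model, a 2-fold rule with no test, a block and each array left out.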

Additional observations from a re-analysis of the deposited data

Results flagged for a closer look

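For 7 serpins the knockout difference in adult liver departed from that in fetal liver by the interaction term of limma, at an adjusted p under 0.05 and at least 2-fold. The differences of differences on the log2 scale, adult minus fetal, were 3.15 for Serpinb5, 2.82 for Serpina7, 2.40 for Serpina4-ps1, 2.05 for Serpinb3a, 2.01 for Serpina9 and 1.62 for Serpine2. The value was -1.80 for Serpinb1a. Only Serpine2 and Serpinb1a were well above background in all 4 groups, so the values of the others are not measured sizes. For Serpina7, Serpina9, Serpina4-ps1, Serpine2 and Serpinb1a the genotype difference was called in adult liver, and for Serpinb5 and Serpinb3a in fetal liver. With the normexp background correction the values were 0.41 for Serpinb5, 0.10 for Serpinb3a, 0.19 for Serpina9 and 0.84 for Serpine2, and these 4 were no longer called. The Serpina9 interaction was also lost when any 1 of 5 arrays was left out, with values of 1.49 to 2.13. These were adult knockout replicates 1 and 2, adult wild type replicate 1, fetal knockout replicate 2 and fetal wild type replicate 2.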

How the results depend on the processing

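Requiring probes well above background on all 8 arrays left 21 serpins to test, and the number called was 2 for adult knockout against adult wild type, 0 for fetal knockout against fetal wild type, 18 for adult against fetal knockout, 17 for adult against fetal wild type and 2 for the interaction, because fewer genes were tested. In that fetal count, 11 had an unadjusted p under 0.05 in limma. In the main setting 5163 of all 14582 genes did, and the share over all genes under the alternatives is not given here. With the normexp background correction the fetal genotype count was 0, with 18 of 37 at an unadjusted p under 0.05, the adult genotype count was 3 and the interaction count was 3, and the cause was not tested. With that correction the direction turned for Serpinb3c (0.34), Serpinb5 (0.26) and Serpini1 (0.22) in adult against fetal wild type, and for Serpini1 (0.01) in adult against fetal knockout. All 4 are dim in the adult, where the offset of that correction lifts dim probes more than on fetal arrays, so these turns cannot decide a direction. The split of higher against lower calls there was 2 and 1 in the adult genotype comparison, 20 and 2 in adult against fetal wild type, and 2 and 1 in the interaction. Leaving out 1 array gave 5 to 6 calls in the adult genotype comparison, 2 to 3 in the fetal one, 31 to 32 for stage in the knockout, 28 to 29 for stage in wild type and 6 to 8 for the interaction. The numbers of the duplicates do not pair samples, since their deviations correlated between -0.14 and 0.08 across groups, and a replicate block gave 5, 3, 32, 29 and 7 calls in the same order. Median scaling moved the median of all genes to -0.58 in adult against fetal knockout and -0.72 in adult against fetal wild type, from -0.04 and -0.01, and to 0.10 in adult knockout against adult wild type, from -0.10, so differences are relative to such shifts.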
